A study of Mus musculus with 15 samples.

Results

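The comparison described here is low stretch against no stretch in cultured mouse podocytes. Its members were chosen by sample title: the 6 low-stretch and 3 unstretched samples of experiment 1, 9 of the 15 samples of the series. All came from SVI, a conditionally immortalised mouse podocyte line that had been differentiated before it was plated on elastic silicone membranes. Stretch serves in the series as a culture model of raised pressure in the glomerulus, the filter of the kidney. In the low-stretch samples the centre of the membrane was moved up and down with an amplitude labelled 5 to 6 mm, while the unstretched samples carry no other treatment in their labels. No allele or agent is named for either group. How long the cells were stretched is not given in the sources used here, and all samples share 1 line, so the spread between them is a spread within SVI. The labels do not say whether the samples came from separate cultures or days, so the p-values measure the spread between these samples, which may be technical.

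Podocytes are epithelial cells that wrap the glomerular capillaries with interdigitating foot processes. A slit diaphragm of nephrin and partner proteins bridges neighbouring processes, and an actin cytoskeleton anchored by integrins to the basement membrane carries the load of the blood pressure. Mechanical load reaches gene expression by several known routes. Actin assembly releases MRTF coactivators to join the transcription factor SRF, and the Hippo pathway coactivators YAP and TAZ enter the nucleus of stretched or spread cells.

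Each sample carries a plate code, and the codes fall into 3 runs of neighbouring positions (A05 to C05, D05 to F05 and G05 to A06), each with 1 unstretched and 2 low-stretch samples. The unstretched sample has the first position in every run, so position within the run and stretch cannot be told apart. The labels do not say what the runs stand for. Total gene counts ranged from 261999648 to 396658285 in the stretched samples and from 279096099 to 294648217 in the unstretched samples. Levels are given as CPM, counts per 1000000 counts scaled with TMM factors, and changes as log2 fold changes of low stretch against no stretch, fitted with the run as a block, with a standard error (SE) for the leading genes. A gene is called higher or lower, or is said to have risen or fallen, where edgeR's quasi-likelihood test gave a Benjamini-Hochberg adjusted p under 0.05 over all genes tested. The 3 levels given for stretched cells are the lowest, the median and the highest of the 6 samples, and the 3 given for unstretched cells are replicates 1, 2 and 3, which lie in runs 1, 2 and 3.

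Samples of the same run deviated together from their group means, with a mean correlation across genes of 0.411 (range 0.244 to 0.579), against -0.3 for samples of different runs. Centring on group means itself pushes pairs within a group toward negative values. Most such pairs lie in different runs, so part of the -0.3 comes from the centring. The first principal component of log2 CPM held 44.0% of the variance. Within each run both stretched samples had a lower score on it than the unstretched sample (-38.91 and -17.91 against 37.18 in run 1, -53.95 and -41.36 against 14.74 in run 2, 18.95 and 9.02 against 72.23 in run 3). The stretched samples of run 3 thus scored near the unstretched samples of the other runs. Mitochondrially encoded genes took 4.18% ± 0.616 of counts under stretch (SD, n = 6) and 4.18% ± 0.492 without (SD, n = 3).

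Of 21672 genes tested, 6106 (28.2%) were called: 2972 higher (13.7%) and 3134 lower (14.5%). Falls were larger than rises in median size. The median log2 fold change was 0.31 among genes called higher and -0.56 among genes called lower, and 290 genes (1.34%) rose by more than 1 on the log2 scale while 691 (3.19%) fell by more than 1. Of the 14340 protein-coding genes tested, 17.6% were called higher and 16.3% lower. The median over all genes tested was 0.00. All 6 stretched samples lay above the unstretched sample of their own run for 4470 genes (20.6%) and below it for 4623 (21.3%), and the groups as a whole did not overlap for 3267 (15.1%). Within-run log2 differences had Pearson correlations of 0.648, 0.64 and 0.604 between the runs (over genes, which do not count as replicates), and 6092 of the 6106 called genes had one sign in all 3 runs. Leaving out unstretched replicate 1, 2 and 3 gave 1291, 1545 and 1722 genes called higher and 1787, 1995 and 1929 called lower. With the run as a block, each of these fits also loses the comparison within that run. List counts from those fits, given below, stand beside this general loss of calls. Without the block, 400 genes (1.85%) were called higher and 781 (3.6%) lower, and in transcript abundances (TPM) summed per gene the split was 1079 higher and 4035 lower. TPM were fitted without further scaling between samples, and the median log2 fold change over the genes tested was -0.095 there. The TPM split thus includes a general downward shift. Of the 183 named genes called here, 81 also passed without the block, and none changed direction in any other fit that was run. Many of these were named for the size or p-value of their change in this same fit. Of all called genes with a TPM fit, 5919 of 6067 kept their direction in TPM.

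**Figure D1:**
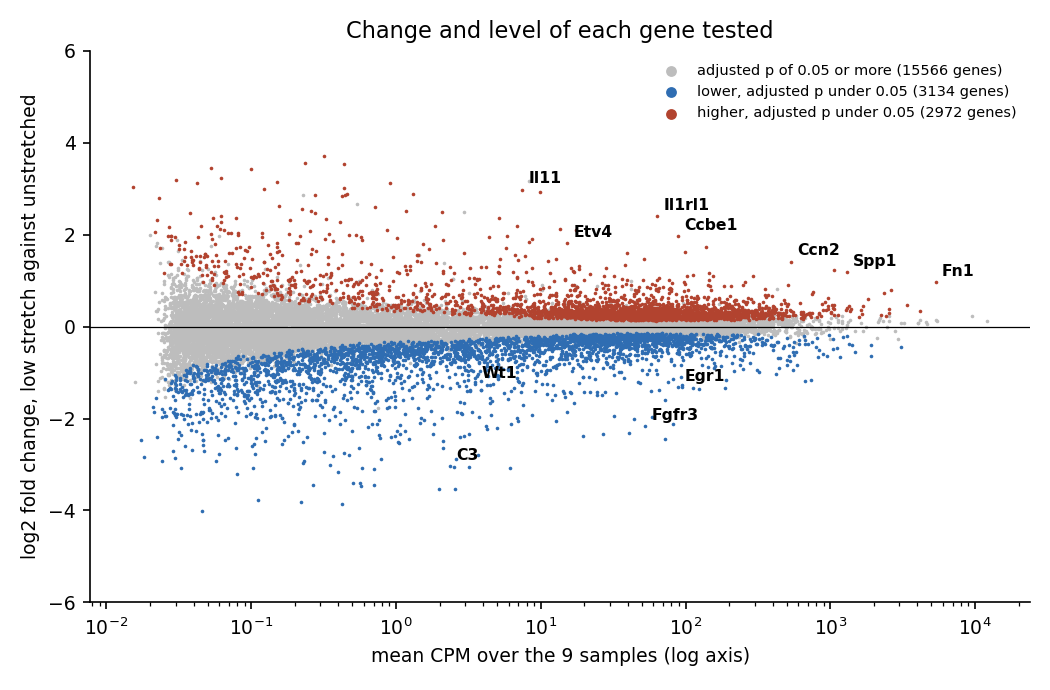
Log2 fold change of low stretch against no stretch (vertical axis) by mean CPM over the 9 samples (horizontal axis, log scale), 1 point for each of 21672 genes tested. Beyond 1 on the log2 scale lie 691 of the 3134 genes called lower (blue) and 290 of the 2972 called higher (red).

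The 12 largest rises among genes with a mean of at least 5 CPM, all 6 stretched samples above their own run and a symbol that is no provisional name included a cytokine and a cytokine receptor. Il11 (ENSMUSG00000004371), a cytokine of the interleukin-6 family, was at 3.35, 9.49 and 18.7 CPM in stretched cells and at 2.25, 1.48 and 0.364 CPM in unstretched cells. No stretched sample was as low as any unstretched sample, and the log2 fold change was 2.98 (SE 0.17, edgeR adjusted p = 5.82e-06). Il1rl1 (ENSMUSG00000026069), the interleukin-33 receptor ST2, was at 72.9, 77.2 and 108 CPM against 17.5, 25.6 and 8.93 CPM. Its within-run log2 differences were 2.14, 2.08 and 3.05, so the rise was seen in every run (fitted log2 fold change 2.40, SE 0.16, edgeR adjusted p = 9.36e-06). Cmah (ENSMUSG00000016756), the hydroxylase that converts the sialic acid Neu5Ac to Neu5Gc, was at 5.1, 6.65 and 9.34 CPM under stretch and at 1.3, 1.98 and 0.92 CPM without, again with no overlap (log2 fold change 2.37, SE 0.22, edgeR adjusted p = 7.27e-05). In TPM the difference of Cmah was much smaller and was not called (means of 2.38 and 1.58 TPM, log2 fold change 0.54, limma adjusted p = 0.0623).

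The other rises of this group belonged to genes of unlike function. Serpinb9b, a serpin from a multigene cluster whose members can share reads, had a log2 fold change of 2.93. The inward rectifier potassium channel gene Kcnj16 rose by 2.20, the cardiac troponin gene Tnnt2 by 2.13 and the sorting receptor gene Sorcs2 by 2.11 on the log2 scale. The neuronal beta-tubulin gene Tubb3 rose by 1.98, Ccbe1, a secreted factor of lymphatic growth, by 1.96, and Eva1a by 1.85, and the fitted level of Tmem200a was 3.74 times the unstretched level. Etv4, an ETS transcription factor of the PEA3 group, rose by 1.82, and its lowest stretched sample (4.81 CPM) was below the highest unstretched sample (10.4 CPM), with run 3 low in both groups. Among the lowest p-values for a rise were also St3gal1, a sialyltransferase (1.21, SE 0.07), Fam171a1 (1.02, SE 0.06), Dpysl3, a cytoskeletal regulator of growth cones (1.11, SE 0.07), and Ptprn, a secretory granule protein (1.88, SE 0.12).

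The 12 largest falls held several secreted and membrane proteins. Fgfr3 (ENSMUSG00000054252), a fibroblast growth factor receptor, was at 13.5, 21.8 and 42.9 CPM in stretched cells against 97, 73 and 156 CPM in unstretched cells. Every stretched sample was under every unstretched one (log2 fold change -2.17, SE 0.16, edgeR adjusted p = 1.36e-05). Cldn19, a tight junction claudin, had the largest fall of the group, by 3.08 on the log2 scale (SE 0.29). Apln, the ligand of the apelin receptor, fell by 2.35, the methyltransferase gene Inmt by 2.39 and the water channel gene Aqp1 by 2.11. For those 3 genes the groups overlapped although all 6 stretched samples lay below the unstretched sample of their run, and none of them passed without the block (edgeR adjusted p = 0.153, 0.119 and 0.133).

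The atypical cadherin gene Fat2 fell by 2.12, and the matrix protein genes Hmcn1, which encodes a hemicentin, and Sned1 fell by 2.05 and 2.00. C4bp and C1s1, a regulator and a protease of complement, fell by 2.30 and 2.06, and Lbp, the lipopolysaccharide-binding protein, fell by 1.99. The lowest p-values for a fall also included Cysltr1, a leukotriene receptor (-2.87, SE 0.11), Edar, the ectodysplasin receptor (-3.39, SE 0.16), and Fry (-2.12, SE 0.12). Edar was at 0.0548, 0.0883 and 0.252 CPM under stretch against 0.911, 0.695 and 2.23 CPM, so it was a gene of low level in both groups. In TPM, with 0.1 added before the log2, the fitted changes were smaller, at -2.07 for Edar, -1.20 for Fry and -1.34 for Hmcn1. For Edar the mean TPM was 0.0488 under stretch and 0.579 without. The added 0.1 pulls such low values together, so -2.07 does not show a smaller change of Edar. For Fry the mean TPM was 0.441 under stretch and 1.15 without, and for Hmcn1 it was 2.38 and 6.09. For Fry and Hmcn1 counts and TPM thus differed in the size of the fall, and the reason was not tested.

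**Figure D2:**
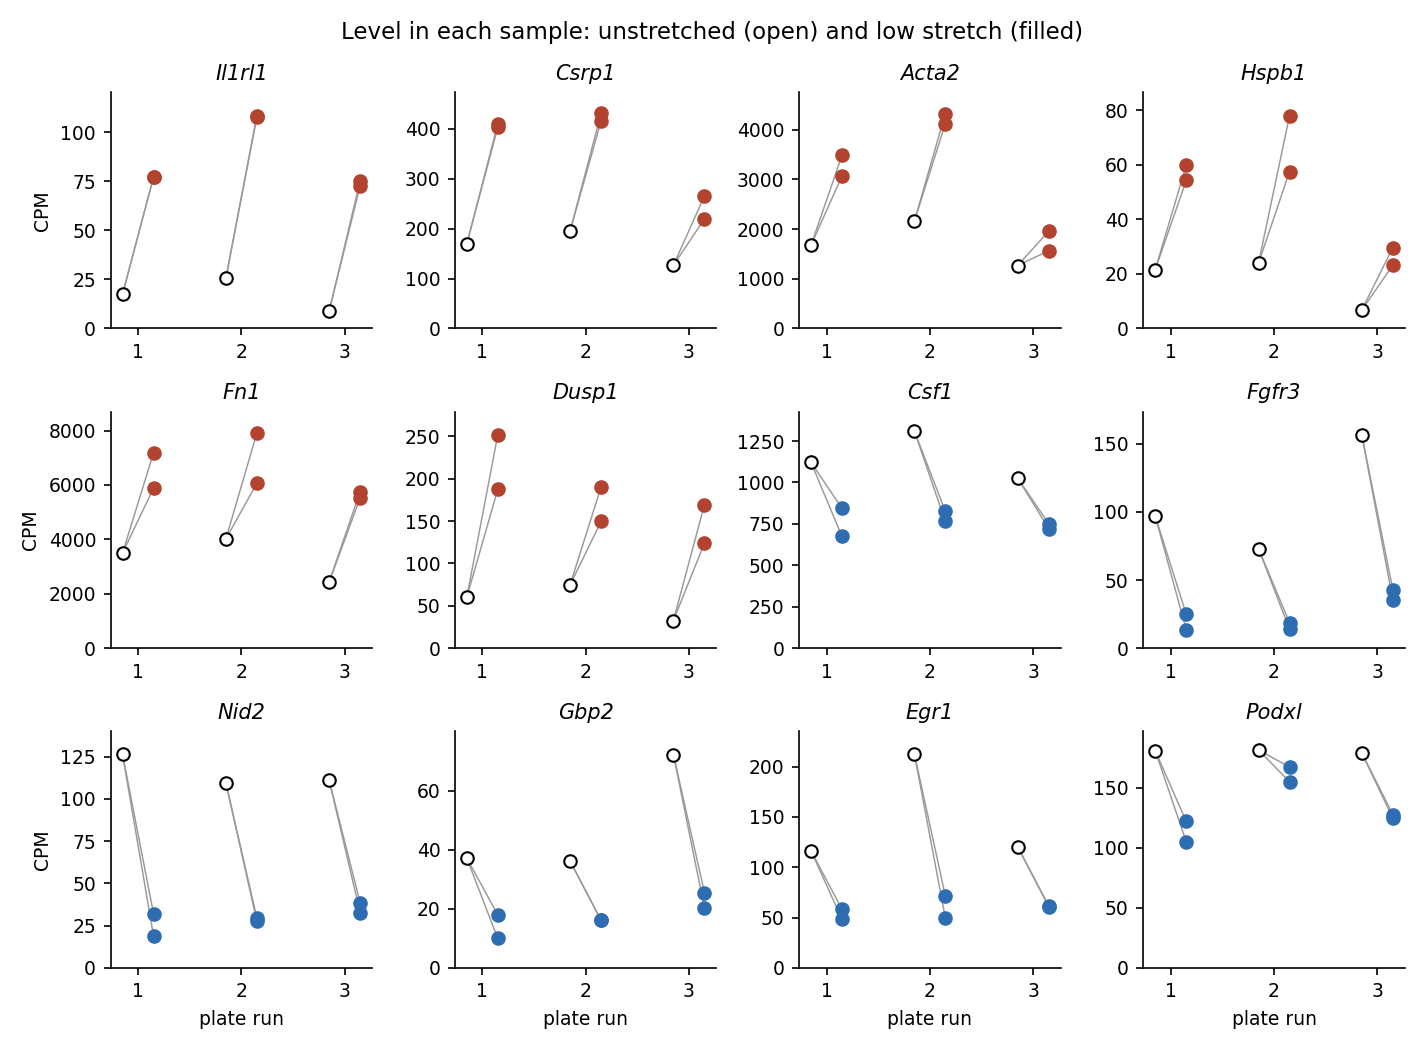
CPM of 12 genes (vertical axes, from 0) in the 3 plate runs (horizontal axes), with the unstretched sample of a run as an open circle joined to the filled circles of its 2 stretched samples. In every panel both stretched samples lie on the same side of the unstretched sample of their run, while the levels of Acta2, Hspb1, Fgfr3 and Egr1 also differ between runs.

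The podocyte label was checked against markers. Of 10 podocyte markers, 5 had a mean of at least 1 CPM. Nphs1, which encodes nephrin of the slit diaphragm, was at 0.224, 0.426 and 0.79 CPM under stretch and at 0.243, 0.329 and 0.392 CPM without. Ptpro and Foxc2 did not pass the filter on low counts. Nphs1 was under 1 CPM in every sample, while Podxl, Synpo, Cd2ap, Wt1 and Lmx1b were above it. The nephrin gene (log2 fold change 0.44, edgeR adjusted p = 0.277) was not called.

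Among the podocyte markers, 3 of the 8 tested fell and 0 rose, where 14.5% of all genes tested fell and 13.7% rose. Podxl, which encodes the sialoprotein podocalyxin of the foot process surface, was at 105, 126 and 167 CPM in stretched cells and at 181, 182 and 179 CPM in unstretched cells. The unstretched samples were nearly equal and every stretched sample lay below them (log2 fold change -0.45, SE 0.08, edgeR adjusted p = 0.00297, and 0.0762 without the block). Wt1, the master transcription factor of podocytes, was at 1.32, 2.25 and 4.33 CPM against 5.37, 4.66 and 6.65 CPM. It did not overlap between the groups (log2 fold change -1.25, SE 0.19, edgeR adjusted p = 0.000894), and without the block its adjusted p was 0.0688. Lmx1b, a LIM homeobox factor of podocytes, fell by 0.35 (edgeR adjusted p = 0.0174). Synpo, the actin-associated protein synaptopodin, and Cd2ap, the adaptor that ties the slit diaphragm to actin, were not called (0.16 and 0.18, edgeR adjusted p = 0.286 and 0.201).

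Of 28 slit diaphragm and foot process membrane genes 25 were tested, and 5 rose while 10 fell (without the run block 1 rose and 4 fell), with a median log2 fold change of -0.13. Plce1, a phospholipase C mutated in inherited nephrotic syndrome, had the largest fall (-1.93, SE 0.12), from 6.78, 7.22 and 12.8 CPM to 1.55, 2.29 and 3.01 CPM. Dag1, the dystroglycan gene, fell by 0.68, and Ezr, the ezrin that links podocalyxin to actin, by 0.61 (edgeR adjusted p = 0.000232 and 0.000398). Rises were seen for Thsd7a, a foot process protein known as a target of autoantibodies in membranous nephropathy (1.28, SE 0.19), for the Src family kinase gene Fyn (0.72, SE 0.06), which phosphorylates nephrin, and for the adaptor gene Nck1 (0.35, SE 0.06), which joins phosphorylated nephrin to actin. Of 14 podocyte lineage transcription factors 12 were tested, with 1 called higher and 5 called lower (without the run block 1 rose and 1 fell). Klf15 fell by 1.30 and Foxd1 by 0.85, whereas Zeb2 rose by 0.62 (edgeR adjusted p = 0.00698, 0.000427 and 0.00049). Without unstretched replicate 1, 3 factors were called lower and 3 slit diaphragm genes higher. Tcf21 did not pass the filter on low counts.

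Of 24 podocyte actin-binding and inherited nephrosis genes 22 were tested, 5 rose and 6 fell (without the run block 1 rose and 2 fell). Nes, the intermediate filament protein nestin, was at 96.8, 116 and 135 CPM under stretch against 56.8, 64.2 and 56.5 CPM, with no overlap (log2 fold change 0.96, SE 0.09). Actn4 and Inf2, an actin crosslinker and a formin that are both mutated in inherited focal segmental glomerulosclerosis, rose by 0.27 and 0.25. Arhgap24, which encodes the Rac-inactivating protein FilGAP, fell by 0.52, Kank1 by 0.67 and Synpo2, a relative of synaptopodin, by 0.71 (edgeR adjusted p = 0.000903, 7.36e-05 and 0.0126). The podocyte genes therefore moved in both directions. The number of rises in this list was 1, 2 and 3 without unstretched replicate 1, 2 and 3, and without the first the number of falls was 3.

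Markers of other kidney cells were examined beside these results. Immune markers summed to between 7.39 and 14.5 CPM in stretched samples and to between 25.8 and 28.5 CPM in unstretched samples. Nearly all of that sum was Csf1r, which was at 6.11 to 13.3 CPM against 24.6 to 27.2 CPM, whereas the leukocyte markers Ptprc, Adgre1 and Itgam did not exceed 0.0597 CPM in any sample. Tubular markers summed to between 542.8 and 875.4 CPM under stretch and to between 1121 and 1498 CPM without. Lrp2, the endocytic receptor megalin, made up most of it (526.6 to 818.4 CPM against 1039 to 1184 CPM), and Kap was at 0 in every sample. Of the 4 tubular markers tested 1 rose (Slc12a1, by 0.70 at levels of at most 0.799 CPM) and 2 fell (Lrp2 and Aqp1). Cubn was not called (0.27, edgeR adjusted p = 0.0571). Mesangial markers summed to 1641 to 4391 CPM against 1381 to 2255 CPM, nearly all of it Acta2, and of the 5 mesangial markers tested 1 rose (Acta2) and 2 fell. Endothelial markers summed to 29.75 to 39.55 CPM against 49.32 to 51.87 CPM, nearly all of it Ehd3, with Cdh5 at most 0.0183 CPM. Of the 4 endothelial markers tested 1 rose (Flt1, by 0.84 at levels of at most 0.324 CPM) and 1 fell (Ehd3, by 0.48). Pecam1 and Tek had positive log2 fold changes (0.63 and 0.32) and were not called. Parietal epithelial markers summed to 367.2 to 662.6 CPM against 404.8 to 468.4 CPM, and of the 5 tested 2 rose (Pax8 and Cdh6) and 1 fell (Cldn1). Fibroblast markers summed to at most 1.79 CPM in any sample. In these bulk samples, fewer cells of a type and less RNA per cell cannot be told apart.

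Genes driven by SRF and MRTF had the largest share of rises among the lists on mechanics and adhesion. All 30 were tested, 20 rose and 0 fell (without the run block 6 rose and 0 fell), against 13.7% and 14.5% of all genes, and the median log2 fold change was 0.46. Their median within-run differences were 0.54, 0.41 and 0.33 in runs 1, 2 and 3. Csrp1, an actin-binding LIM protein, was at 219, 406 and 431 CPM in stretched cells and at 169, 195 and 126 CPM in unstretched cells. The groups did not overlap (log2 fold change 1.10, SE 0.08, edgeR adjusted p = 1.36e-05). Acta2, the smooth muscle actin gene, was at 1564, 3280.5 and 4328 CPM against 1672, 2156 and 1266 CPM. The groups overlapped, with run 3 low in both, yet all 6 stretched samples lay above their own run (log2 fold change 0.80, SE 0.11, edgeR adjusted p = 0.000621). The call of Acta2 was lost without the block (edgeR adjusted p = 0.136) and in DESeq2 (adjusted p = 0.181). Csrp2 and Filip1l rose by 1.26 and 1.02, and Cnn1, the calponin of smooth muscle, and Tagln, the SM22 gene, by 0.49 and 0.45. Srf itself was not called (-0.23, edgeR adjusted p = 0.112), and neither was Vcl, the vinculin gene (0.21, edgeR adjusted p = 0.0839).

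The SRF recognition element, the CArG box, is 10 bases long, and it was searched on both strands in the 250 bases before the starts that RefSeq gives for GRCm38.p6. It was found in 8 of the 24 members with a promoter in that table (33.3%), in 3 of 15 that rose (20%) and in 179 of 12263 genes tested (1.46%). The match is a description of letters and not of a bound site. The stretches below carry the box in capitals with up to 40 bases on each side, for 2 genes that rose and for Srf, whose promoter holds 2 boxes, and are printed 5′ to 3′ on the strand of the gene (Filip1l at chr16:57549140-57549229 and Myl9 at chr2:156775263-156775352 on the plus strand, Srf at chr17:46556195-46556284 on the minus strand).
Filip1l: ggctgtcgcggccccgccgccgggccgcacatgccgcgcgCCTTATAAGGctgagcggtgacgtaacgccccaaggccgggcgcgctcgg
Myl9: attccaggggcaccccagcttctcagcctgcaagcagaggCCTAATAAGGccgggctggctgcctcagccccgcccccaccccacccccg
Srf: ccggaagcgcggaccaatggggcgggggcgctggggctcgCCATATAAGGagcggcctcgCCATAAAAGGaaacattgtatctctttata
The box lies 62 to 53 bases before the start in Filip1l and 161 to 152 bases before it in Myl9, and the first one lies 82 to 73 bases before it in Srf.

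Non-muscle myosin and tropomyosin genes and their kinases moved mostly upward, with 15 of 30 tested called higher and 1 called lower (without the run block 5 rose and 0 fell). Tpm1, the tropomyosin that stabilises stress fibres, was at 2383, 2672 and 3207 CPM under stretch and at 1674, 1760.2 and 1478 CPM without, with no overlap (log2 fold change 0.73, SE 0.08, edgeR adjusted p = 0.000131). Myl9, the regulatory myosin light chain, rose by 0.91, and the GTPase gene Rhoc by 0.67 (SE 0.12 and 0.06). Mylk, the kinase of that light chain, was the member that fell, by 0.90 (SE 0.13, edgeR adjusted p = 0.000729). The heavy chain genes Myh9 and Myh10 were not called (-0.03 and -0.08, edgeR adjusted p = 0.794 and 0.418).

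Filamins and the chaperone system that clears tension-damaged filamin were tested with all 21 members, of which 8 rose and 1 fell (without the run block 1 rose and 0 fell). Hspb1, a small heat shock protein, was at 23.1, 55.8 and 78 CPM in stretched cells against 21.5, 23.9 and 6.8 CPM. Run 3 was the lowest in both groups and the within-run differences were 1.40, 1.48 and 1.94 (fitted log2 fold change 1.61, SE 0.13, edgeR adjusted p = 3.21e-05, and 0.0765 without the block). Flna, the main non-muscle filamin, rose by 0.48. Bag3, the cochaperone that binds damaged filamin, rose by 0.29 (edgeR adjusted p = 0.00696), while Flnc was not called (-0.06, edgeR adjusted p = 0.705).

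Integrin and focal adhesion genes were tested for 42 of 45 members, and 15 rose while 6 fell (without the run block 3 rose and 2 fell). Tes, which encodes testin, was at 132, 186 and 221 CPM against 92, 91.1 and 56.6 CPM, and Actn1, the non-muscle alpha-actinin, rose by 0.75, both without overlap (edgeR adjusted p = 8.21e-06 and 0.000103). The integrin chains differed. Itgb3 and Itgb1 rose by 1.06 and 0.35, Itga1, Itga7 and Itgb8 fell by 1.16, 0.31 and 0.44, and Itga3, the laminin-binding chain of podocytes, was not called (0.03, edgeR adjusted p = 0.785). Stretched replicate 1 had Itgb3 at 22.4 CPM where the median was 6.93 CPM. The adaptor genes Tln1 and Pxn were not called either (-0.19 and -0.10, edgeR adjusted p = 0.084 and 0.283). Without unstretched replicate 1 or 2, the number of focal adhesion genes that rose was 6 or 8, and 3 fell in both cases. Of 20 mechanosensitive channel genes tested, 6 rose and 1 fell (without the run block 0 rose and 0 fell). Piezo2 rose by 0.74 at levels of at most 1.05 CPM, Tmem63a by 0.37, Trpc1 by 0.31 and the volume-regulated anion channel gene Lrrc8a by 0.21. The connexin gene Gja1 fell by 0.35, Piezo1 was not called (-0.11, edgeR adjusted p = 0.245), and Trpc6 did not pass the filter on low counts. Leaving out unstretched replicate 1 left 3 channel genes that rose, and the calls of Piezo2 and Lrrc8a were lost in 8 and 6 of the 9 fits that each left out 1 sample.

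Targets of YAP and TEAD split: of 21 tested, 8 rose and 7 fell (without the run block 1 rose and 1 fell), with a median of -0.01. Ccn2, the connective tissue growth factor gene, was at 245, 737 and 993 CPM under stretch and at 246, 436 and 107 CPM without. The groups overlapped, and the within-run differences were 1.52, 1.18 and 1.47 (fitted log2 fold change 1.41, SE 0.18, edgeR adjusted p = 0.000399, and 0.154 without the block). Ankrd1 and Axl, a cardiac repeat protein and a receptor kinase, rose by 0.52 and 0.26, Fjx1 by 0.63, and Foxf2 by 1.24 with stretched replicate 1 far above the rest. The Foxf2 log2 fold change was 0.76 without that sample. Nt5e, Ptpn14, Nuak2 and Amotl2 fell by 0.85, 0.52, 0.48 and 0.26, and Ccn1 was not called (0.13, edgeR adjusted p = 0.418). Median within-run differences of this list had no common sign (0.29, -0.23 and 0.05 in runs 1, 2 and 3). Among Hippo components 30 of 31 were tested, 6 rose and 10 fell (without the run block 1 rose and 3 fell). The coactivator genes Yap1 and Wwtr1 rose by 0.22 and 0.18, the kinase gene Taok3 by 0.65, Tead2 by 0.35 and Vgll3 by 0.28. The upstream scaffold gene Wwc1, which encodes KIBRA, fell by 0.42 and Tead4 by 0.39, while Tead1 was not called (-0.23, edgeR adjusted p = 0.118). Leaving out unstretched replicate 1 left 5 YAP targets and 2 Hippo genes that rose, and leaving out unstretched replicate 2 left 4 and 3 that fell. The Hippo counts were also 3 rises without stretched replicate 4 or unstretched replicate 2 and 4 falls without unstretched replicate 3, and the calls of Wwtr1, Vgll3 and Foxf2 were each lost in 5 or 6 of the 9 fits without 1 sample.

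Immediate early genes also moved both ways, with 10 of 31 tested called higher and 5 lower (without the run block 4 rose and 4 fell). Egr1, a zinc finger factor induced within minutes of many stimuli, was at 48.2, 59.4 and 71.6 CPM in stretched cells and at 116, 213 and 120.4 CPM in unstretched cells. Every stretched sample was below every unstretched sample (log2 fold change -1.32, SE 0.15, edgeR adjusted p = 0.00015). Egr2 and Egr3 fell by 2.80 and 2.50, with unstretched replicate 2 far above the others in each, and Fos fell by 0.91. Dusp1, a phosphatase of MAP kinases, was at 124, 178 and 252 CPM against 59.9, 74.5 and 32.6 CPM, also without overlap but in the other direction (log2 fold change 1.72, SE 0.19). Myc, Fosl2 and Jun rose by 1.11, 0.89 and 0.38, and Atf3 was not called (-0.22, edgeR adjusted p = 0.319).

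**Figure D3:**
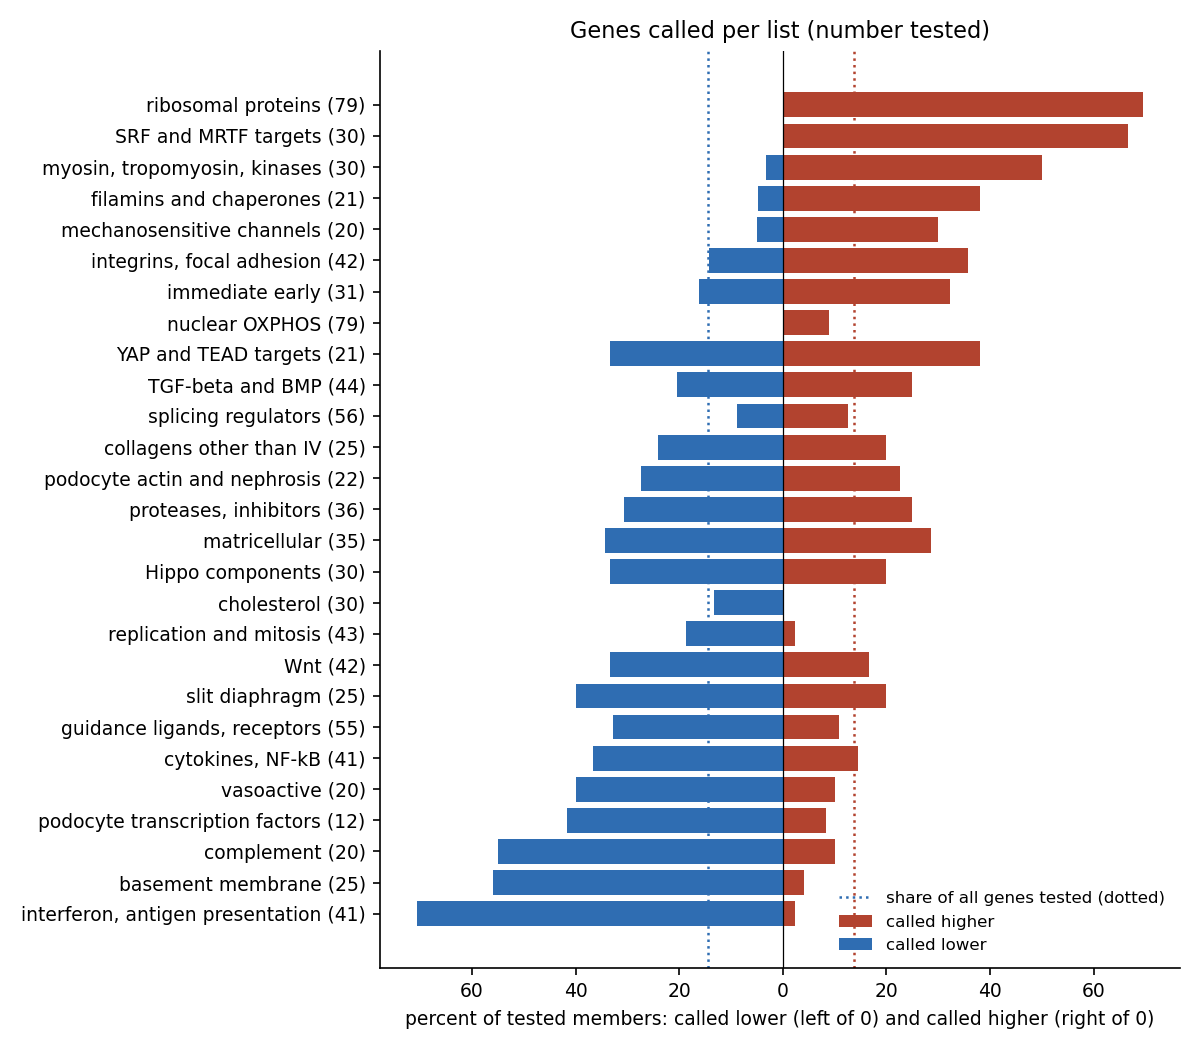
Percent of the tested members of 27 gene lists called lower (blue, left of 0) and called higher (red, right of 0), with the number tested in brackets and dotted lines at the shares of all genes tested, 14.5% and 13.7%. Ribosomal protein genes and SRF targets have the longest red bars and interferon, basement membrane and complement genes the longest blue bars.

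Basement membrane genes mostly fell. Of 30 listed 25 were tested, 14 fell and 1 rose (without the run block 1 rose and 9 fell), with a median of -0.43 and within-run medians of -0.34, -0.48 and -0.54. Nid2, a nidogen that links laminin to type IV collagen, was at 18.8, 30.8 and 38.4 CPM under stretch and at 126, 109 and 111 CPM without. The lowest unstretched sample was far above the highest stretched one (log2 fold change -1.97, SE 0.15, edgeR adjusted p = 1.66e-05). Lama3, a laminin chain, fell by 2.65, and Fras1, which joins epithelium to matrix, by 1.32 (SE 0.20 and 0.16). The laminin chains of the mature glomerular basement membrane, Lama5 and Lamb2, fell by 0.58 and 0.32 (edgeR adjusted p = 0.000135 and 0.00191). Col4a1 was at 2174, 2832 and 3353 CPM against 3759, 3259 and 4209.8 CPM, so the groups overlapped slightly while each stretched sample was below its own run (log2 fold change -0.43, SE 0.08, edgeR adjusted p = 0.0032, and 0.0894 without the block). Col4a3, a chain of the adult glomerular network, was the member that rose (0.97, SE 0.20), at levels between 0.229 and 0.702 CPM.

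Other collagens showed no common direction, with 5 of 25 tested called higher, 6 called lower (without the run block 1 rose and 4 fell) and a median of -0.20. Col11a1, a fibril collagen, was at 1.64, 1.77 and 2.63 CPM against 7.43, 8.99 and 10.3 CPM, without overlap (log2 fold change -2.23, SE 0.15, edgeR adjusted p = 1.1e-05). Col20a1 and Col2a1 fell by 0.67 and 0.57, whereas Col27a1, Col7a1 and Col6a2 rose by 0.65, 0.60 and 0.33. Col1a1 rose by 0.71 at levels of 0.271 to 1.32 CPM, and Col3a1, Col6a1 and Col12a1 were not called (-0.74, 0.33 and -0.22, edgeR adjusted p = 0.053, 0.0737 and 0.116). Without unstretched replicate 1 or 3, 3 of these collagens rose, and the call of Col6a2 was lost in 6 of 9 fits without 1 sample.

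Matricellular, elastic fibre and small proteoglycan genes were tested for 35 of 46 members, with 10 called higher and 12 lower (without the run block 3 rose and 6 fell). Fn1, the fibronectin gene, was at 5522, 5972 and 7906 CPM in stretched cells and at 3494, 4012 and 2437 CPM in unstretched cells. The groups did not overlap (log2 fold change 0.97, SE 0.11, edgeR adjusted p = 0.000227). Spp1, which encodes osteopontin, was at 1008, 1582 and 2179 CPM against 898, 805 and 437 CPM and rose by 1.18 (SE 0.12). Thbs1, thrombospondin 1, moved the other way, from 2509.9, 2524 and 2423 CPM to 1297, 1575 and 1951 CPM, again without overlap (log2 fold change -0.64, SE 0.09). Ltbp1, which tethers latent TGF-beta to the matrix, and Tnc, tenascin C, rose by 1.11 and 0.40, and periostin (Postn) and osteoglycin (Ogn) fell by 1.49 and 1.67 on the log2 scale. Fibrillin 2 (Fbn2) fell to 0.386 times its unstretched level. These matrix genes thus differed in direction, and without unstretched replicate 1 or 3 the number of rises was 6.

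Matrix proteases and their inhibitors were tested for 36 of 51 members, 9 rose and 11 fell (without the run block 3 rose and 4 fell). Timp1, an inhibitor of metalloproteinases, was at 39.6, 49.1 and 70.7 CPM against 30.1, 35.1 and 25.1 CPM, with no overlap (log2 fold change 0.79, SE 0.07, edgeR adjusted p = 5.83e-05). Timp3 fell by 0.33. The ADAMTS genes split, with a rise of Adamts1 by 0.81 and falls of Adamts16 and Adamts4 by 2.39 and 1.26. Mmp23 fell by 0.66 and Mmp2 was not called (-0.16, edgeR adjusted p = 0.062).

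Among TGF-beta, activin and BMP genes 44 of 49 were tested, 11 rose and 9 fell (without the run block 3 rose and 0 fell). The ligand gene Tgfb1 was at 22.5, 28.7 and 39.4 CPM under stretch and at 22.8, 21.2 and 17 CPM without, with overlap between the groups, and rose by 0.53 (SE 0.09, edgeR adjusted p = 0.00243, and 0.0874 without the block). Inhba, which encodes the activin A subunit, and Fst, follistatin, its extracellular inhibitor, rose by 0.73 and 0.68, and the SMAD repressor gene Skil by 0.65. The call of Skil was lost in DESeq2 (adjusted p = 0.0758) and in 3 of 9 fits without 1 sample. The BMP-related genes Chrdl1, Gdf6 and Id4 fell by 1.22, 0.85 and 0.83. The receptor gene Tgfbr2 and the signal transducer and feedback genes Smad3, Smad7 and Id1 were not called (0.15, 0.06, 0.27 and -0.31, edgeR adjusted p = 0.457, 0.392, 0.155 and 0.147), and Bmp4 did not pass the filter on low counts.

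Of 65 cytokine, chemokine and NF-kB genes 41 were tested, and 15 fell while 6 rose (without the run block 3 rose and 5 fell), Il11 and Il1rl1 among the latter. Tnfaip3, the ubiquitin-editing inhibitor A20 of NF-kB signalling, rose from 18.1, 25.6 and 11.8 CPM to 25.7, 51.2 and 67.5 CPM, with no overlap (log2 fold change 1.35, SE 0.13). Csf1, the macrophage growth factor, was at 674, 758 and 843 CPM in stretched cells against 1122, 1311 and 1026 CPM in unstretched cells. The groups did not overlap (log2 fold change -0.59, SE 0.08, edgeR adjusted p = 0.00046). Cxcl12 and Cx3cl1, chemokines for lymphocytes and monocytes, fell by 1.14 and 0.90, and Socs3, the feedback inhibitor of cytokine receptors, by 1.21 (SE 0.13, 0.06 and 0.15). Ccl2, Lif and Nfkbia were not called (-0.66, -0.12 and -0.03, edgeR adjusted p = 0.0784, 0.558 and 0.805), and Il6 did not pass the filter on low counts.

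Complement genes fell more often than they rose. Of 35 listed 20 were tested, 11 fell and 2 rose (without the run block 0 rose and 8 fell), with a median of -0.35 and within-run medians of -0.37, -0.42 and -0.41. C3, the central component of the cascade, was at 0.379, 0.55 and 1.32 CPM under stretch and at 3.98, 5.13 and 7.74 CPM without. No stretched sample reached any unstretched one (log2 fold change -3.03, SE 0.13, edgeR adjusted p = 2.02e-06). C4b fell by 3.05 (SE 0.20), although its near-identical copy C4a can share its reads, and Cfi, the protease that inactivates C3b and C4b, fell by 2.11 (SE 0.15). The members that rose were C1qbp, which encodes a mostly mitochondrial protein (0.36, SE 0.09), and Cr1l, a membrane regulator also called Crry (0.17, SE 0.05). Clu, clusterin, was not called (-0.18, edgeR adjusted p = 0.342), and Cfb and Cd55 did not pass the filter on low counts. The summed immune markers given above were lower too, with Csf1r falling and Ptprc, Adgre1 and Itgam near 0, and their part in this result was not tested.

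Interferon-stimulated and antigen presentation genes had the largest share of falls among the lists with at least 10 members tested. Of 47 listed 41 were tested, 29 fell and 1 rose (without the run block 0 rose and 14 fell), against 14.5% and 13.7% of all genes, with a median of -0.51 and within-run medians of -0.64, -0.42 and -0.44. Gbp2, a guanylate-binding protein induced by interferon gamma, was at 9.95, 17 and 25.5 CPM in stretched cells and at 37.1, 36.1 and 72.2 CPM in unstretched cells. The groups did not overlap (log2 fold change -1.42, SE 0.15, edgeR adjusted p = 0.000128). Gbp4 and Gbp3 fell by 2.73 and 1.37, Cmpk2 by 1.43 and Ifit1, an antiviral RNA-binding protein, by 0.92, where Gbp genes are close paralogs and can share reads. In TPM the fitted change of Gbp4 was -1.74, from means of 0.101 under stretch and 0.582 without, values that the 0.1 added before the log2 pulls together. H2-K1, a class I heavy chain, fell by 0.50, whereas its light chain gene B2m was the member that rose (0.19, SE 0.06, edgeR adjusted p = 0.0391). The call of B2m was lost in 6 of 9 fits that each left out 1 sample. The transcription factor gene Irf7 was lower in all 6 stretched samples than in their own run but was not called (-0.33, edgeR adjusted p = 0.0633). Levels of many members were low, with Ifit1 between 0.281 and 0.75 CPM. The fall of the immune marker Csf1r beside Ptprc, Adgre1 and Itgam near 0 stands beside this list as well, and its part was not tested.

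The core of interferon-stimulated response elements, GAAA and GAAA with any 2 bases between them, was searched on both strands in the same 250 bases before RefSeq starts of GRCm38.p6, where matches may overlap. It was found in 12 of 29 list members with a promoter (41.4%), in 9 of 20 that fell (45%) and in 387 of 12263 genes tested (3.16%). A match says nothing of a bound site. The stretches of 3 genes that fell carry it in capitals, here as its reverse complement on the strand of the gene, 5′ to 3′ and on the plus strand of the chromosome (Gbp2 at chr3:142620564-142620653, Gbp3 at chr3:142559959-142560043 and Ifit1 at chr19:34640745-34640834).
Gbp2: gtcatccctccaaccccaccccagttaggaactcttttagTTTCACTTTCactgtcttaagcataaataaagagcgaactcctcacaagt
Gbp3: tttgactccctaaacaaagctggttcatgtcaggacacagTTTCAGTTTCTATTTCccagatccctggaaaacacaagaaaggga
Ifit1: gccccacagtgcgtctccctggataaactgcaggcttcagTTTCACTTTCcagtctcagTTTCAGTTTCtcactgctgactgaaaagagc
Gbp2 has the element 59 to 50 bases before its start, Gbp3 has 2 overlapping matches of which the first lies 45 to 36 bases before it, and Ifit1 has 2 separate matches of which the first lies 104 to 95 bases before it.

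**Figure D4:**
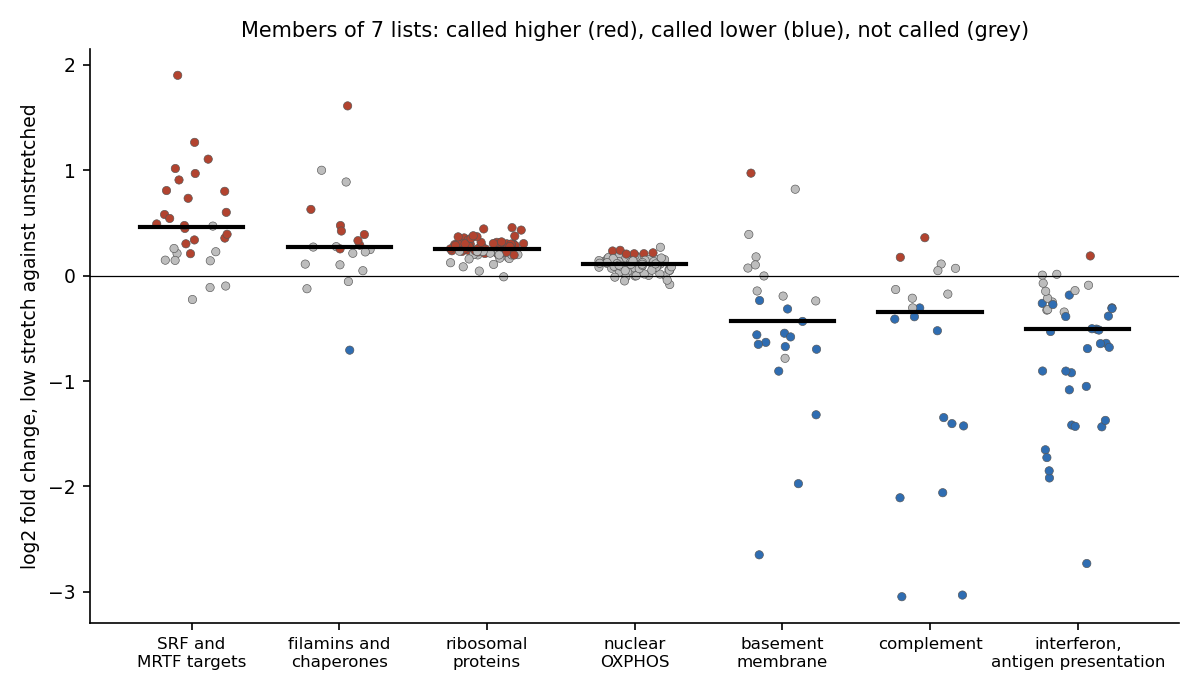
Log2 fold change of low stretch against no stretch (vertical axis) for each tested member of 7 gene lists (horizontal axis, points spread sideways for clarity), with the list median as a black bar. SRF targets spread upward from 0, ribosomal protein genes form a narrow band near 0.26, and basement membrane, complement and interferon genes spread downward, to -3.05 for C4b.

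Wnt pathway genes were tested for 42 of 61 members, 7 rose and 14 fell (without the run block 3 rose and 3 fell). Axin2, the feedback inhibitor that beta-catenin signalling induces, was at 1.62, 2.11 and 3.32 CPM under stretch and at 0.778, 0.678 and 0.569 CPM without. It did not overlap between the groups (log2 fold change 1.68, SE 0.16, edgeR adjusted p = 7.04e-05). The nuclear partners Lef1 and Tcf7 rose by 1.31 and 0.90, and beta-catenin itself (Ctnnb1) was not called (0.07, edgeR adjusted p = 0.427). The ligand genes Wnt16 and Wnt5b fell by 1.16 and 0.90, and Sfrp1, a secreted Wnt antagonist, by 0.84 (SE 0.19, 0.14 and 0.14). The number of Wnt genes that fell was 7, 8 and 9 without unstretched replicate 1, 2 and 3, and 4 rose without the second.

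Vasoactive genes were tested for 20 of 37 members, 8 fell and 2 rose (without the run block 1 rose and 4 fell). Edn1, which encodes the vasoconstrictor endothelin 1, was at 19.6, 23.2 and 40.3 CPM in stretched cells and at 59.8, 45.3 and 68.4 CPM in unstretched cells. The groups were apart (log2 fold change -1.11, SE 0.09, edgeR adjusted p = 3.03e-05). Npr3, the clearance receptor of natriuretic peptides, and Adm, adrenomedullin, fell by 1.19 and 1.14. Npr1, the signalling receptor of atrial natriuretic peptide, and Bdkrb2, the bradykinin receptor, rose by 0.47 and 0.98 (edgeR adjusted p = 0.00803 and 0.000237). Agtr1a and Ednrb did not pass the filter on low counts.

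Guidance ligands and receptors were tested for 55 of 70 members, 18 fell and 6 rose (without the run block 0 rose and 8 fell). Sema3a, a semaphorin that podocytes secrete, was at 143, 178 and 268 CPM against 311, 329 and 445 CPM, without overlap (log2 fold change -0.91, SE 0.09, edgeR adjusted p = 8.61e-05). Sema3g, Sema3e, Sema5b and the netrin gene Ntn4 fell by 1.56, 1.03, 0.96 and 0.95. Rises were smaller, of 0.53 for Sema7a, 0.48 for the ephrin receptor gene Epha7, 0.38 for Plxnd1 and 0.27 for the ephrin gene Efnb2, and Plxna2 was not called (0.17, edgeR adjusted p = 0.431).

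Most cytosolic ribosomal protein genes rose by a small amount. All 79 were tested, 55 rose and 0 fell (without the run block 0 rose and 0 fell), with a median log2 fold change of 0.26 and within-run medians of 0.20, 0.33 and 0.22. Rplp0, a protein of the ribosomal stalk, was at 1404, 1699 and 2226 CPM under stretch and at 1336, 1538 and 1200.5 CPM without, so the groups overlapped while all 6 stretched samples lay above their own run (log2 fold change 0.37, SE 0.08, edgeR adjusted p = 0.00695). The largest rises were those of Rps2 (0.46), Rps29 (0.44) and Rpl13a (0.43), and Rps6 rose by 0.23. The calls of Rps2 and Rps6 were lost in 5 and 6 of 9 fits that each left out 1 sample. Together these genes took 3.47% ± 0.468 of counts in stretched samples (SD, n = 6) and 3.01% ± 0.281 in unstretched samples (SD, n = 3), and a two-sided exact permutation test that leaves out the runs gave p = 0.143 (adjusted p = 0.286 over this share and 3 other measures of the libraries, where the smallest p is 0.0238). Within each run both stretched samples had a larger share than the unstretched one. The shares were 3.323 and 3.287 against 3.001% in run 1, 4.273 and 3.659 against 3.293% in run 2, and 2.874 and 3.425 against 2.732% in run 3. The permutation test could not use this, as it leaves out the runs. The count of genes that rose depended on the fit. It was 17, 5 and 20 without unstretched replicate 1, 2 and 3, 34 without stretched replicate 6, 38 with upper quartile scaling and 7 in TPM. In each of them 0 members fell, and in TPM the median log2 fold change over all genes was -0.095. Processed pseudogenes of these genes can share their reads, so single values are uncertain.

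DNA replication and mitosis genes were all tested (43), with 8 called lower and 1 higher (without the run block 0 rose and 0 fell) and a median of -0.06. Mki67, the proliferation marker Ki-67, was at 207, 243 and 334 CPM in stretched cells against 235, 308 and 438 CPM. The groups overlapped and each stretched sample was below its own run (log2 fold change -0.31, SE 0.07, edgeR adjusted p = 0.00965, and 0.317 without the block). Top2a, Cenpe, Cenpf and E2f8 fell by 0.26, 0.39, 0.43 and 0.36, the helicase gene Mcm7 rose by 0.25, and Ccnb1 and Mcm2 were not called (-0.10 and 0.12, edgeR adjusted p = 0.377 and 0.255). The list had 1 call lower without unstretched replicate 2 and 0 without unstretched replicate 3. Run 3 had the lowest median difference of this list (0.03, -0.05 and -0.18 in runs 1, 2 and 3).

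Other programmes were counted without naming members, against 13.7% called higher and 14.5% called lower among all genes tested. Among protein-coding genes alone these shares were 17.6% and 16.3%. Over all genes 2972 were called higher and 3134 lower. Without unstretched replicate 1, 2 and 3 these calls numbered 1291, 1545 and 1722 higher and 1787, 1995 and 1929 lower. Of 79 nuclear-encoded oxidative phosphorylation genes 7 rose (8.86%) and 0 fell, and leaving out 1 sample moved the number of rises between 0 (without unstretched replicate 1 or 2) and 19 (without stretched replicate 5). Most of their log2 fold changes were small and positive (71 of 79, against 10936 of 21672 genes tested), with a median of 0.11 and within-run medians of 0.089, 0.128 and 0.091. Of 13 mitochondrially encoded protein genes 0 were called by edgeR, 1 was called lower by DESeq2, and 2 had an unadjusted edgeR p under 0.05. Some other edgeR fits called members. With GC correction 2 were higher and 1 lower, and with no filter on low counts 2 were higher and 2 lower. Without stretched replicate 2, 1 was higher, and without stretched replicate 5, 2 were lower. Growth factors and their receptors had 15 of 57 called lower (26.3%) and 9 higher (15.8%), and p53 target and arrest genes 8 of 30 lower (26.7%) and 2 higher. Without unstretched replicate 1, 2 and 3 the falls among growth factor genes numbered 10, 12 and 11. Cholesterol synthesis genes had 4 of 30 called lower and 0 higher, with 1, 2 and 0 lower in the same 3 fits. Endoplasmic reticulum stress genes had 6 of 26 lower and 1 higher, with 2, 2 and 3 lower in those fits. Glycolysis and hypoxia genes had 7 higher and 7 lower of 38, with 1, 2 and 6 higher. Glutathione and NRF2 target genes had 9 higher and 7 lower of 39, with 7, 6 and 5 higher. Splicing regulators (12.5% higher, 8.93% lower of 56), fatty acid genes (13.9% and 16.7% of 36) and Notch genes (17.4% in each direction of 23) lay near or below the shares of all genes, and the splicing regulators called higher numbered 1, 1 and 2 without unstretched replicate 1, 2 and 3.

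Among gene families, serpins had 11 of 29 called higher (37.9%) and 6 lower (20.7%), and dual-specificity phosphatase and RGS genes 12 of 40 higher and 5 lower. With 1 sample left out, the number of rises stayed between 8 and 11 for the serpins and between 9 and 13 for the phosphatase and RGS genes. The solute carrier family had 58 of 232 tested members called lower and 26 higher (11.2%), with within-run medians of -0.07, -0.07 and -0.09. Its falls numbered 37, 45 and 44 without unstretched replicate 1, 2 and 3. Over all genes, the calls lower went from 3134 to 1787, 1995 and 1929 in those fits. The calls higher went from 2972 to 1291, 1545 and 1722. Potassium channels had 11 of 41 lower (26.8%), which was 6 without unstretched replicate 1 or 2, and nuclear receptors had 11 of 34 lower (32.4%), which was 7 without unstretched replicate 1. Kinesin and dynein heavy chains had 13 of 45 lower (28.9%), and 8, 5 and 6 without unstretched replicate 1, 2 and 3. Of 5 Shroom and FilGAP genes tested 4 fell and 0 rose, and 2 fell without unstretched replicate 2. Prostaglandin genes had 6 of 15 called higher and 3 lower, and 2, 3 and 4 higher without unstretched replicate 1, 2 and 3. S100 genes had 4 of 14 higher and 1 lower, with 2, 3 and 3 higher in those fits. Junction genes had 16 higher and 15 lower of 56, with 6, 11 and 11 higher, and small GTPase regulators had 17 higher and 21 lower of 79, with 6, 9 and 9 higher. Hox genes had 5 of 26 called lower and 0 higher, with 4 lower in each of those fits. The protocadherins, which share exons between variants of a cluster, had 7 of 53 called lower and 2 higher, with 2, 3 and 4 lower. The Zfp zinc finger family, with 41 of 342 higher and 30 lower (8.77%), lay below the shares of all genes, and its rises numbered 15, 10 and 23 without unstretched replicate 1, 2 and 3. Without the block 3 phosphatase and RGS genes were called higher, 24 solute carrier genes lower, and 0 prostaglandin genes and 1 junction gene higher.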

How the data were processed

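Poly(A) RNA of 9 samples was sequenced, and the authors deposited raw counts per Ensembl gene and TPM per transcript. The submitters' processing notes name mm39, STAR 2.7.5c, featureCounts, Subread 2.0.0, DESeq2 1.38.3 and Salmon 1.9.0 without their roles, while the annotation, strand setting and pair counting are not given in the sources used here. The totals exceed the clusters per sample that the labels name, so both mates of a fragment may have been counted. Without a known strand setting, overlapping and antisense genes cannot be told apart. Samples were grouped by title, and the members and lists were chosen with earlier results of these data known.

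The counts, 261999648 to 396658285 per sample, were filtered with filterByExpr and fitted with edgeR 4.0.16 in R 4.3.3 (TMM, quasi-likelihood F test, plate run as block, 5 residual degrees of freedom). Of 55416 genes, 52083 had a symbol in RefSeq or the name table. Lists were described by counts and medians, without a set test. Alternatives were DESeq2 1.42.0, limma 3.58.1 on log2(TPM + 0.1), other scalings and filters, corrections for length and GC, no block, all 15 samples, and leaving out samples or runs.

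Named genes were the 12 largest changes in each direction at a mean of at least 5 CPM with all 6 stretched samples on one side of their run, the 5 lowest p-values in each direction, preset members of each list, and up to 3 called members per list and direction at a mean of at least 1 CPM. A few members that the rule named are not reported here.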

Additional observations from a re-analysis of the deposited data

Results flagged for a closer look

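Dixon's test for 6 samples (critical ratio 0.625) found 1 stretched sample apart from the other 5 in 9 measures, among 218 named genes and the technical measures, and chance alone flags about 1 group in 20. Stretched replicate 2 had the highest total count, 396.7 M (M, 1000000 counts). Stretched replicate 1 was highest for Itgb3 (22.35 CPM), Kcnj16 (26.53 CPM), Foxf2 (4.081 CPM) and Skil (132.97 CPM). Stretched replicate 2 was highest for Fst (594.3 CPM) and Col11a1 (2.626 CPM). Stretched replicate 5 was highest for Cenpf (86.66 CPM) and Postn (28.88 CPM). The genes in which replicate 1 stood apart encode an integrin chain, a potassium channel, a transcription factor and a SMAD repressor.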

How the results depend on the processing

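Of the 183 named calls, 183 kept both side and direction with RLE scaling and with GC or length correction, 181 with DESeq2 or no filter on low counts, 174 with upper quartile scaling and 145 in TPM, where the log2 fold change differed by over 1.5 times for 33 of 183 (31 of them smaller in TPM). Between 176 and 180 remained without any 1 stretched sample, but 152, 154 and 155 without unstretched replicate 1, 2 and 3, 162, 145 and 158 without plate run 1, 2 and 3, 142 with all 15 samples and 75 with the replicate block. Beyond the design of the fits without 1 unstretched sample, described below, the cause was not tested. Genes called (higher, lower) were 2468 (853, 1615) with all 15 samples, 1181 (400, 781) without the plate run block, 3457 (1472, 1985) without plate run 1, 3105 (1349, 1756) without run 2 and 3734 (1813, 1921) without run 3. In TPM 1079 genes were called higher and 4035 lower, against 2972 and 3134, with a median log2 fold change of -0.095 over the genes tested. The 0.1 added to TPM before the fit also pulls low values together. Leaving out 1 sample gave 3078 to 6062 genes called, 1291 to 3009 higher and 1787 to 3053 lower, with totals of 3078, 3540 and 3651 without unstretched replicate 1, 2 and 3. The numbers 1 to 3 in the labels are shared by the groups, but samples with the same replicate number deviated together by a mean correlation of -0.0723 only (range -0.447 to 0.376). These pairs are few, and that of number 1 also shares run 1, so whether the numbers pair the samples is not known. With a replicate block in place of the run, 490 genes were called (171 higher, 319 lower). Fits without 1 unstretched sample leave that run without a partner. With the run as a block, such a run then adds almost nothing to the fitted change. For Atf3 the log2 fold change was 0.0054 without unstretched replicate 1 and 0.0053 without plate run 1. Genes that failed the filter on low counts were not tested, so their response is not known.

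Changes of direction were limited, among named genes, to genes that were not called. Without plate run 1 the log2 fold change was 0.0053 for Atf3, -0.0248 for Ccn1 and -0.0542 for Itga3. Without run 2 it was 0.0294 for Flnc, 0.1919 for Lif and 0.0263 for Myh9. Without run 3 it was 0.0009 for Ccnb1, 0.0411 for Nfkbia, -0.0163 for Synpo and -0.0107 for Tgfbr2. In TPM, where the median over the genes tested was -0.095, it was -0.0982 for Ctnnb1, -0.0822 for Itga3, -0.0042 for Mcm2, -0.0967 for Nphs1 and -0.0563 for Smad3. With upper quartile scaling, where that median was -0.0315, it was -0.0024 for Itga3. With length correction it was 0.0161 for Myh9 and 0.0036 for Nfkbia. With the replicate block, which pairs by number only, it was 0.1921 for Id1, 0.0174 for Myh9, 0.1061 for Nfkbia, -0.1558 for Plxna2, -0.0968 for Synpo and -0.1264 for Tgfbr2. Without 1 sample the ranges were -0.3967 to 0.0054 for Atf3, -0.0247 to 0.3542 for Ccn1, -0.2076 to 0.0019 for Ccnb1, -0.1504 to 0.0276 for Flnc, -0.0540 to 0.1259 for Itga3, -0.3095 to 0.1900 for Lif, -0.0906 to 0.0242 for Myh9, -0.1300 to 0.0421 for Nfkbia, -0.0152 to 0.2934 for Synpo and -0.0097 to 0.2529 for Tgfbr2.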

Other observations

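Calls differed in balance between kinds of gene. Of 14340 protein-coding genes tested, 2524 were called higher (17.6%) and 2344 lower (16.3%), with a median log2 fold change of 0.02. Of 3626 long non-coding RNA genes 640 were called lower (17.7%) and 105 higher (2.9%), with a median of -0.21. Of 3125 pseudogenes 321 were called higher (10.3%) and 122 lower (3.9%), with a median of 0.16. Among all genes tested 13.7% were called higher and 14.5% lower, so the low shares are those of long non-coding RNA genes called higher and of pseudogenes called lower. Pseudogenes can share reads with their parent genes.

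TNF family ligands and receptors had 6 of 22 called lower (27.3%) and 5 higher (22.7%), and 4 or 5 rises and 6 or 7 falls in every fit that left out 1 sample. Sialic acid genes had 8 of 24 called lower (33.3%) and 5 higher (20.8%), and 4, 5 and 5 lower without unstretched replicate 1, 2 and 3. Over all genes, the calls lower went from 3134 to 1787, 1995 and 1929 in those fits. The calls higher went from 2972 to 1291, 1545 and 1722. Lysosomal genes had 9 of 39 called higher (23.1%) and 5 lower (12.8%). Without unstretched replicate 1, 2 and 3 their rises numbered 3, 2 and 2 and their falls 3, 3 and 4. Of 60 histone genes, whose RNAs mostly lack a poly(A) tail, 6 were called lower and 2 higher, and the falls numbered 3, 8 and 3 in those fits. Amino acid response genes controlled by ATF4 had 9 lower and 6 higher of 30, with 5, 8 and 6 lower and 2 higher in each of those fits. Phosphodiesterase and arrestin genes had 6 higher and 4 lower of 16, with 4, 4 and 3 higher. STAT and JAK genes had 4 lower and 2 higher of 12, with 2, 3 and 3 lower. Sodium pump genes had 3 higher and 3 lower of 13, with 0, 2 and 2 higher, and intermediate filament genes 4 and 4 of 24, with 1 higher in each of those fits.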
